A study of Homo sapiens with 4 samples.

Results

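Broad distal H3K27ac domains are long stretches of acetylated chromatin that lie away from annotated gene starts. They were studied in A375 cells, a human melanoma line long kept in culture. Chromatin was profiled by immunoprecipitation with an antibody to histone H3 acetylated at lysine 27, followed by sequencing. Per the labels, 2 libraries are vehicle controls (isopropanol) and 2 are octanoate libraries (a medium-chain fatty acid, 1 mM), with 48 hours of exposure in both groups. All 4 libraries come from this line, and the labels name no genetic change in either group. They do not say whether the libraries of a group came from separate cultures, so the p-values measure only the spread between these libraries, which may be technical. The authors' deposited table holds a single comparison of the 2 treatments, and lists for each region a mean normalised level and a log2 fold change with its error and p-values. It gives no value per library, the depth per library is unknown, and the table does not name which treatment is the numerator. Fold changes are therefore given as positive or negative, never as higher in a named treatment.

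A domain was kept when its width, the end minus the start on hg38, was at least 8 kb and no line of the table gave it a distance of 0 to an assigned gene. This rule found 1075 domains among 91107 distinct regions, or 1.18% of them. Adjusted p-values existed for 1070 of the 1075 and for 36436 regions in all, and these are called tested. The other 5 domains lay beside FOXD4L4, RHOU, CH17-478G19.1, NOTCH2NL and ERV3-1 and had mean levels of 2.76 to 11.2 in the authors' deposited table, below the level at which adjusted p-values were computed. Membership thus rests on width and on distance, and the widths and levels given for the domains are descriptions. The 3 domains just inside the limit were 8005, 8007 and 8011 bases wide and lay beside KLF6, BCAS1 and ITCH. The 3 distal regions just outside it were each 7998 bases wide, beside SOX5, IGF1R and SGCE.

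Acetylation of histone H3 at lysine 27 is placed by the acetyltransferases CBP and p300 and marks active promoters and enhancers. Where several enhancers that are bound by cell-type transcription factors lie close together, the mark spreads into long domains known as super-enhancers or stretch enhancers. Such domains often lie beside genes that define a cell's state, and in melanoma these include neural crest transcription factors and, in cells that have lost the melanocyte programme, targets of AP-1 and of the TEAD partners YAP and TAZ.

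The name super-enhancer-like was checked against the data. When all 80465 distal regions were ranked by mean level, the 1075 domains were 1.34% of the regions and held 15.2% of the summed level, on 12.8 Mb of chromatin or 11.6% of the distal width. They supplied 98 of the 100 highest distal regions, 455 of the highest 500 and 754 of the highest 1000. The level sums over the width of a region, and over the tested domains its Pearson correlation with width was 0.875, so the width rule largely fixes this ranking. Per kilobase the median level was 21.4 in the tested domains, 17.2 in narrower distal regions, 28.2 in broad regions over a start and 25.6 in narrower ones. The usual tangent to the ranked curve fell at a level of 130, above which lay 2065 distal regions, and 997 of the domains (92.7%) were among them. They made up 48.3% of the regions above that level, so the width rule and the level rule select overlapping but different sets. No input track was used and neighbouring regions were not stitched, so these are broad distal domains and not super-enhancer calls.

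Distal holds only for the starts used in the authors' deposited table. Of the 1075 domains, 98 contained a start of a coding gene in RefSeq (GRCh38.p14), for 93 gene symbols that include WWTR1, MITF, TFAP2A, SMAD3, PPARG, RXRA and INHBA. A start of a long noncoding RNA lay within 138 domains. By RefSeq gene bodies, 504 domains lay between coding genes, 550 lay inside or across the gene to which the table assigned them and 21 lay inside or across another coding gene. The distance to the assigned gene had a median of 61206 bases and ranged from 38 bases to 2.64 Mb. A domain said to lie beside a gene is therefore only assigned to it, at any distance.

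Cell identity was checked on regions over gene starts, by mean level in the authors' deposited table. The neural crest regulator SOX10 had a level of 774, the melanosome gene PMEL 269, the receptor kinase AXL 516 and the AP-1 subunit FOSL1 1028. No region lay over the starts of the pigment genes MLANA, TYR, DCT and TYRP1. The blood markers PTPRC and CD3E and the endothelial markers PECAM1 and CDH5 also had no region over their starts. Distal regions were assigned to all 4, with highest levels of 408 for PTPRC, 44.2 for CD3E, 164 for PECAM1 and 148 for CDH5. That of PTPRC is 1 of the broad distal domains, which lies 289755 bases from the gene, between coding genes. The epithelial markers EPCAM and KRT8 had levels of 50.5 and 261. At starts, markers of the melanocyte lineage were thus present in part and those of blood and endothelium were absent, while distal regions assigned to the latter were present.

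Sequences of the domains themselves were not read here, because no genome sequence was used. RefSeq gives mature sequences for microRNAs whose hairpins lie inside them, and these are shown because several of the highest domains sit on microRNA genes. In all, 20 hairpins with 31 mature microRNAs lay in 15 of the 1075 domains, and 1052 domains had an assigned symbol that matched RefSeq. Capitals mark the seed, bases 2 to 8 from the 5′ end, with which a microRNA pairs with its targets. The first pair below lies in the domain beside BLID, the next pair in the domain beside CXorf36 and the next 3 in the domain beside NANOS3. The last lies in a domain inside VMP1.
hsa-let-7a-5p: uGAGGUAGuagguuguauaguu
hsa-miR-100-5p: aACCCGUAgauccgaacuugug
hsa-miR-221-3p: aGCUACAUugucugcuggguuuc
hsa-miR-222-3p: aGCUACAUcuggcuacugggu
hsa-miR-23a-3p: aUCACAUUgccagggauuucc
hsa-miR-27a-3p: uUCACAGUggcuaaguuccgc
hsa-miR-24-3p: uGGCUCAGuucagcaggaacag
hsa-miR-21-5p: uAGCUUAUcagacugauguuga

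Of these, miR-221-3p and miR-222-3p share the seed GCUACAU, and the other 6 each have a seed of their own. Each group comes from neighbouring hairpins, so its members share the domain and its values are 1 measurement. The domain beside BLID, at chr11:122135613-122203657, had the highest mean level of all regions in the authors' deposited table, 2600, with a log2 fold change of 0.37 ± 0.19 (standard error, as throughout) and an adjusted p of 0.278 from the authors' DESeq2 comparison. The CXorf36 domain, at chrX:45738716-45778093 and 537815 bases from that gene, had a level of 1099 and a log2 fold change of 0.47 ± 0.18, adjusted p 0.149, in the authors' deposited table. Beside NANOS3, chr19:13834433-13856285 had a level of 1096 and a log2 fold change of 0.42 ± 0.20, adjusted p 0.248, in the authors' deposited table. The VMP1 domain that holds the miR-21 hairpin, at chr17:59834667-59847983, had a level of 534 and a log2 fold change of 0.09 ± 0.19 in the authors' deposited table. None of the 4 had an adjusted p under 0.05, beside 6.17% of all tested domains. MicroRNAs themselves were not measured.

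The second set of sequences comes from long noncoding RNA genes that start inside the domains with an adjusted p under 0.05. RefSeq gives a window of 250 bases before to 50 bases after each start, 300 bases in all, and 8 such windows lay in those domains. Below are 4 of them, 5′ to 3′ on the strand of the RNA. Capitals mark a match to TGANTCA, a looser form of the AP-1 site that takes any base in the middle, where the usual site has C or G. As a pattern it reads the same on both strands. The shares given below count all its forms together. MSRB3-AS1 (chr12:65642323-65642622, minus strand) lies in a domain assigned to HMGA2, and NTSR1-AS1 (chr20:62735310-62735609, minus strand) in a domain inside NTSR1. LOC124900974 (chr5:53035719-53036018, minus strand) lies in a domain inside ITGA2, and LOC101927995 (chr3:30349541-30349840, plus strand) in a domain assigned to TGFBR2.
MSRB3-AS1: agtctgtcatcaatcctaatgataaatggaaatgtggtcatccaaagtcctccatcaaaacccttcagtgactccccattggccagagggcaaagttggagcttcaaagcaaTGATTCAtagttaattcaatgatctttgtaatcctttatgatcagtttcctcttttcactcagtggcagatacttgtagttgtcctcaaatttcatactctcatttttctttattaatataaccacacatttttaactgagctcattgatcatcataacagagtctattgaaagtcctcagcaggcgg
NTSR1-AS1: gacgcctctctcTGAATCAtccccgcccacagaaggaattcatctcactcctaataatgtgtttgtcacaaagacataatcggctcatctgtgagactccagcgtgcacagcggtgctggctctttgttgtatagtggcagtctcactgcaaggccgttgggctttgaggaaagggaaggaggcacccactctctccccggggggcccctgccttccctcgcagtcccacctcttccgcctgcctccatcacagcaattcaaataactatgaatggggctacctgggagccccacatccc
LOC124900974: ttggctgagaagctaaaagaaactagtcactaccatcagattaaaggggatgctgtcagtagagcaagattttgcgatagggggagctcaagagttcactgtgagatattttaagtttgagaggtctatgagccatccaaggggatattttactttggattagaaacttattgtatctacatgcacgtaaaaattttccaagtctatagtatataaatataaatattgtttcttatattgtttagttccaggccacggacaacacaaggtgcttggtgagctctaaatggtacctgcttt
LOC101927995: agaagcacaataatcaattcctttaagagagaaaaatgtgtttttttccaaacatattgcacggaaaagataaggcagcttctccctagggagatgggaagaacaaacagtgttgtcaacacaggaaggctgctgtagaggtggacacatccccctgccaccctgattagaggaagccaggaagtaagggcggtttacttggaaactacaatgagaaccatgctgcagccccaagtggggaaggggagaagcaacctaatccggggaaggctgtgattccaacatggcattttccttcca

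The match in MSRB3-AS1, with T in the middle, began 138 bases before the start. That in NTSR1-AS1, with A in the middle, began 238 bases before the start, and the other 6 windows held none. Over all domains, TGANTCA was found in 41 of 168 long noncoding RNA windows (24.4%), beside 10.4% of all 12894 such windows. Among windows of coding genes it was found in 21 of 155 (13.5%), beside 6.16% of all 22049. The TEAD core GGAATG, searched on both strands, stood at 20.8% against 17.2% for the noncoding windows and at 16.1% against 12.2% for the coding ones. The M-box TCATGTG, a motif of MITF, was in 8.33% of the noncoding windows in domains and in 3.96% of all, and in 2.58% and 2.33% of the coding ones. GGGCGG, the GC box, stood at 28.6% against 25.4% and at 52.3% against 56.2%. No window in a domain held the exact direct repeat bound by PPAR and RXR (the DR1 element), which only 3 noncoding and 5 coding windows held in all. None of the searched motifs contains another, several windows can belong to 1 gene, and these shares are descriptions of windows near starts, not of the domains.

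The widest domain and the third widest lay around WWTR1, which encodes TAZ, the YAP paralogue that binds TEAD factors; the BLID domain, at 68044 bases, ranked between them. Both WWTR1 domains lie inside or across the gene and are split by a short gap, at chr3:149526842-149607949 (81107 bases) and chr3:149608539-149663276 (54737 bases). Their levels in the authors' deposited table were 2128 and 1691, and their log2 fold changes were 0.30 ± 0.19 and 0.27 ± 0.20. The table's adjusted p-values for them were 0.355 and 0.420, so neither passed 0.05. The libraries come from bulk chromatin, in which a change in all cells and a larger change in a part of them cannot be told apart. Beside PABPC4L, in a stretch without coding genes, a domain of 52826 bases had a level of 1400 and a log2 fold change of -0.06 ± 0.17 in the authors' deposited table. The domains beside KLF14 (42218 bases) and CDKN2B (35550 bases), the latter gene an inhibitor of cyclin-dependent kinases, had log2 fold changes of 0.55 ± 0.19 and 0.54 ± 0.19 in the authors' deposited table. Their adjusted p-values there were 0.0964 and 0.0979. A domain inside AGMO (33482 bases) stood at 0.03 ± 0.19 in the same column of the authors' deposited table.

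Per kilobase, the densest domain was at LMNA, the lamin A/C gene (chr1:156110527-156134225), with a level of 58.7 per kb computed from the authors' deposited table. Other dense domains lay at BCAN with 52.0, NANOS3 with 50.2 and NFIX with 47.9 per kb, again from levels in the authors' deposited table. Over all 1075 domains the level per kb ranged from 0.290 to 58.7, the width from 8005 to 81107 bases with a median of 10297, and the mean level from 2.76 to 2600 with a median of 232. None of the 10 densest domains had an adjusted p under 0.05 in the authors' deposited table. The log2 fold changes of the named domains were 0.39 ± 0.21 at LMNA, 0.38 ± 0.22 at BCAN, 0.42 ± 0.20 at NANOS3 and 0.06 ± 0.22 at NFIX in that table.

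The comparison of octanoate with vehicle gave 66 called domains of 1070 tested (6.17%), where called means an adjusted p under 0.05 from the authors' DESeq2 comparison. All 66 were positive. Among all 36436 tested regions, 1.65% were called positive and 0.0192% negative, 1.67% in all. At an unadjusted p under 0.05, 344 domains were positive and 5 negative, beside 17.9% and 0.475% of all tested regions. Log2 fold changes of the 66 ran from 0.65 to 1.12, with a median of 0.81, a fold of 1.76. Across the tested domains the median was 0.32 with quartiles of 0.17 and 0.47, and 979 of the 1070 (91.5%) were positive. For all tested regions the median was also 0.32 and 87.3% were positive. The whole table is therefore shifted to the positive side by 0.32 (a fold of 1.25), and the typical domain has the shift of the typical region.

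Calls relative to that shift were few. When 0.32 was subtracted from every fold change and the p-values were recomputed with the authors' standard errors, none of the 66 calls remained and 1 other domain was called, beside 0.124% of all tested regions called on both sides. That domain lies inside DPH6, a gene of diphthamide synthesis (chr15:35439332-35447366), where the authors' deposited table gave -0.69 ± 0.23 with an adjusted p of 0.0891. Relative to the median it stood at -1.02, with an adjusted p of 0.0237 after centring, where 0.0714% of all tested regions were called below the median and 0.0521% above it. The domain beside LVRN, with the smallest p of all domains, stood 0.76 above the median. What sets the shift was not tested.

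**Figure D1:**
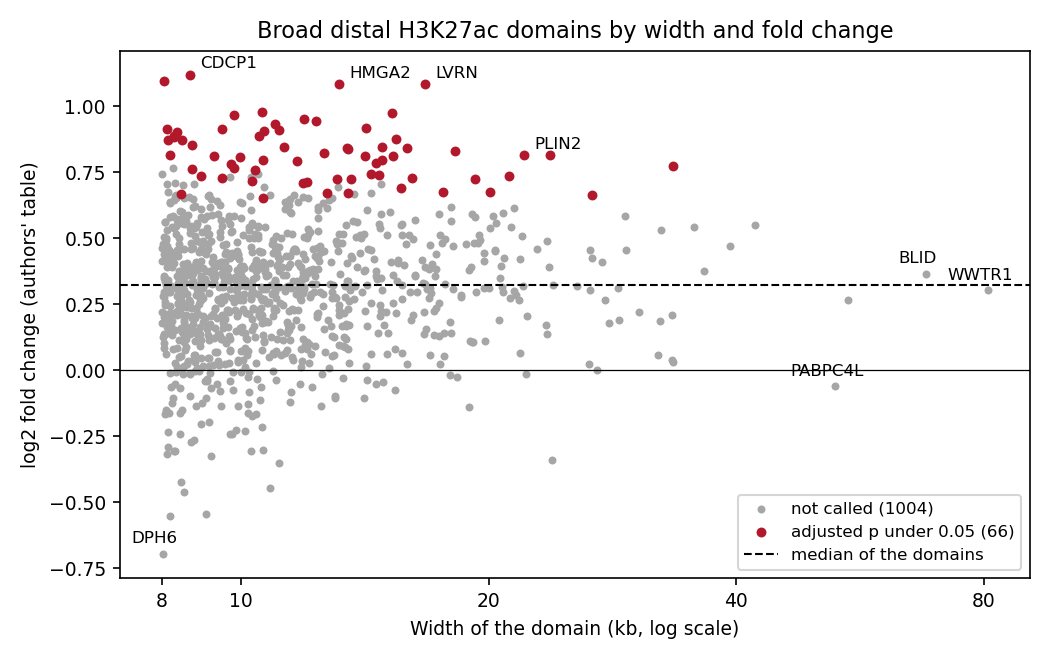
Log2 fold change from the authors' deposited table (vertical axis) against the width of each tested broad distal domain in kb (horizontal axis, log scale); each point is 1 domain and red points are the 66 with an adjusted p under 0.05. Called domains occur both among the narrowest domains and among those over 15000 bases, and the dashed line is the median of 0.32.

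Fold change and width were nearly uncorrelated. Across the 1070 tested domains, which share the same libraries, the correlation of log2 fold change with width was 0.056 (Pearson) and 0.084 (Spearman). The share of calls did differ along the width. Of domains of 8000 to 10000 bases 20 of 489 were called (4.09%), of those of 10000 to 15000 bases 30 of 414 (7.25%) and of wider ones 16 of 167 (9.58%). The authors' standard error had medians of 0.219, 0.211 and 0.200 over these steps, so wider domains were also measured with less error. The medians of the log2 fold change were 0.32, 0.33 and 0.36. Among distal regions under 2000 bases 62 of 10441 were called (0.594%), and their median log2 fold change of 0.33 was like that of the domains, at a median standard error of 0.365. Of distal regions of 2000 to 4000 bases 201 of 10727 were called (1.87%). Those of 4000 to 6000 bases had 144 of 3120 (4.62%) and those of 6000 to 8000 bases 49 of 1082 (4.53%). The shares of 4.62% and 4.53% were above the 4.09% of domains of 8000 to 10000 bases, so the share did not step up at the width limit.

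Since level and error move together, domains were set beside other regions with mean levels from 139 to 433, a range that holds 859 of the 1070 domains. Within it 49 of 859 domains (5.70%) were called, beside 24 of 850 narrower distal regions (2.82%), 11 of 566 broad regions over a start (1.94%) and 12 of 1667 narrower regions over a start (0.720%). Median standard errors were 0.213, 0.223, 0.208 and 0.221 in that order, and median log2 fold changes 0.32, 0.31, 0.29 and 0.29. The classes were not of equal level within this range: their median levels were 232, 166, 272 and 171, and their median levels per kb 21.5, 27.7, 27.2 and 31.9. They also differed in the spread of the fold changes over regions, whose SD was 0.239 for the domains, 0.223 for narrower distal regions, 0.173 for broad regions over a start and 0.148 for narrower ones. In the narrower range of level from 175 to 319, the shares called were 5.77%, 2.17%, 1.87% and 0.541%. The distal classes held larger shares of negative values than the classes over starts: 73 of the 859 domains were negative, as were 56 of the 850 narrower distal regions, 10 of the 566 and 15 of the 1667. No test of these differences was made, because regions share the same 4 libraries.

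**Figure D2:**
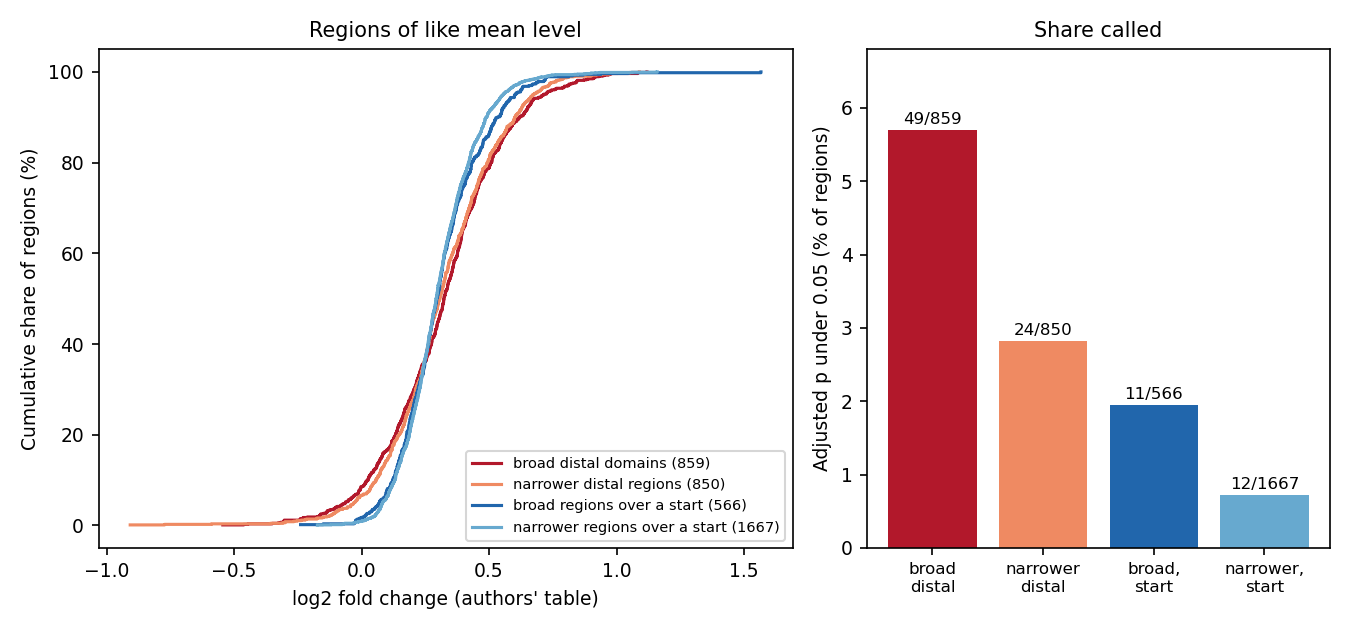
Left, cumulative share of regions (percent) against log2 fold change for 4 classes of regions with mean levels of 139 to 433; right, percent of each class with an adjusted p under 0.05, with called over tested regions above each bar. The curves of both distal classes are wider than those of regions over starts, and the bars stand at 5.70%, 2.82%, 1.94% and 0.720%.

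The share of calls was also read by density and place. When the domains were split by level per kb into 4 sets of about equal size, 22 of 268 were called in the least dense set (8.21%), 17 of 267 and 19 of 267 in the middle sets (6.37% and 7.12%) and 8 of 268 in the densest (2.99%). The share thus showed no steady trend, and the densest set had the lowest. The share of positive domains was 85.1% in the least dense set, 92.1% in both middle sets and 96.6% in the densest. Domains between coding genes were called in 39 of 499 cases (7.82%), those inside or across their assigned gene in 27 of 550 (4.91%) and the 21 others in none. None of the 98 domains that contain a RefSeq coding start was called, and 26 of them had an unadjusted p under 0.05. Their median log2 fold change was 0.32, as in the rest, and their SD was 0.169 against 0.253. By distance to the assigned gene, with limits at 10, 100 and 500 kb, the share called was nearly flat, at 6.60%, 5.98%, 6.25% and 6.78%. Beyond 500 kb, 45 of 59 domains were positive (76.3%), with a median of 0.27.

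The 15 calls with the smallest p-values lay beside 14 genes of various functions. The most extreme was a domain of 16742 bases beside LVRN, a membrane aminopeptidase (chr5:115924550-115941292), at a level of 246 and a log2 fold change of 1.08 ± 0.20, adjusted p 0.000135, in the authors' deposited table. SREK1, a splicing regulator, had a domain at 0.98 ± 0.20 with an adjusted p of 0.00145 in the authors' deposited table. A domain inside SLC2A13, a myo-inositol transporter, stood at 1.09 ± 0.23 with an adjusted p of 0.00156 in the authors' deposited table. Enzymes and signalling genes were among the rest. PTPN1, the tyrosine phosphatase PTP1B, had a domain at 0.95 ± 0.20, and DUSP10, a phosphatase of stress-activated MAP kinases, had a domain at 0.88 ± 0.20 in the authors' deposited table. Beside HAO1, glycolate oxidase, the authors' deposited table gave 0.93 ± 0.21, beside TRIM77 0.97 ± 0.21, inside RASSF8 0.85 ± 0.19 and inside PRSS3, a trypsin, 0.83 ± 0.19. These 6 had adjusted p-values from 0.00259 to 0.00608 there. Some calls outside the 15 were picked after their values were seen. They include EREG, an EGFR ligand, at 0.90 ± 0.21 (adjusted p 0.00645), and PTGES, a prostaglandin E synthase, at 0.81 ± 0.24 (adjusted p 0.0483), both in the authors' deposited table.

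Many domains stood close to one another. With gaps of up to 50 kb joined, the 1075 domains formed 863 loci, of which 147 held 2 or more domains and together 359 domains (33.4%). The 66 calls fell in 57 loci. In 6 loci 2 or more domains were called, 15 in all: CDCP1 with CLEC3B, HMGA2, ARNT2 with FAM108C1, FST, GRAMD1B and SREK1. Calls in 1 locus are therefore not independent.

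CDCP1 encodes a transmembrane glycoprotein that is a substrate of SRC kinases. Its locus held 5 domains from chr3:45052788 to 45185774, of which 4 were called. In chromosome order their log2 fold changes, as the authors' deposited table gives them, were 0.85 ± 0.20 (beside CLEC3B), 0.87 ± 0.23, 1.12 ± 0.22, 0.95 ± 0.20 and 0.57 ± 0.22. Their adjusted p-values there ran from 0.000714 to 0.0245 for the first 4, and that of the last was 0.153. From 110 kb below to 20 kb above the start used by the table, in chromosome coordinates, 10 narrower or start regions were also tested. All 10 were positive, with a median of 0.78 and a range of 0.36 to 1.07, and 2 were called. Over all tested regions 87.3% were positive and 1.67% were called, and this window was drawn around called domains. The region over the CDCP1 start stood at 0.78 ± 0.31, adjusted p 0.164, in the authors' deposited table.

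HMGA2 encodes an architectural chromatin protein of the embryo that many tumours express, and its domains fell into 2 groups. On the side before the start, 3 adjacent domains from chr12:65627812 to 65675935, at distances of 148196 to 183181 bases, were all called. Their log2 fold changes were 1.08 ± 0.22, 0.81 ± 0.20 and 0.78 ± 0.21 in the authors' deposited table. Inside the gene, 2 further domains stood at 0.01 ± 0.21 (chr12:65889006-65900820) and -0.23 ± 0.21 (chr12:65932856-65942967) in the authors' deposited table. All 3 values before the start were above the 2 inside the gene, and the region over the start lay between them at 0.30 ± 0.19. Domains with a gap of up to 50 kb had like fold changes across the genome (Pearson correlation 0.706), so the 3 adjacent domains are not separate measurements. The locus was also named because of its calls, and how often other loci show such a split was not counted. The lack of overlap therefore says little about a separation of groups. Other regions mostly followed the same split. From 230 kb before to 20 kb after the start, 7 others were tested, the start region among them, with a median of 0.74 and a range of 0.05 to 0.91. Of these 2 were called, beside 1.67% of all tested regions. The value of 0.05, of the narrow region nearest to the start on that side, is an exception to the split. From 20 to 130 kb after it, 7 others had a median of 0.03 and a range of -0.40 to 0.25, and none was called. The difference between the sides was noticed in these values and was not tested.

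ITGA2, the alpha 2 subunit of a collagen-binding integrin, held 2 domains within the gene. The wider, at chr5:53025672-53041587, was called at 0.84 ± 0.18 (adjusted p 0.00308), and the other stood at 0.75 ± 0.22 (adjusted p 0.0504), both in the authors' deposited table. Here the region over the start was called as well, at 0.90 ± 0.22 with an adjusted p of 0.00949 in the authors' deposited table. All 6 tested regions from 20 kb before to 80 kb after the start were positive, beside 87.3% of all tested regions.

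**Figure D3:**
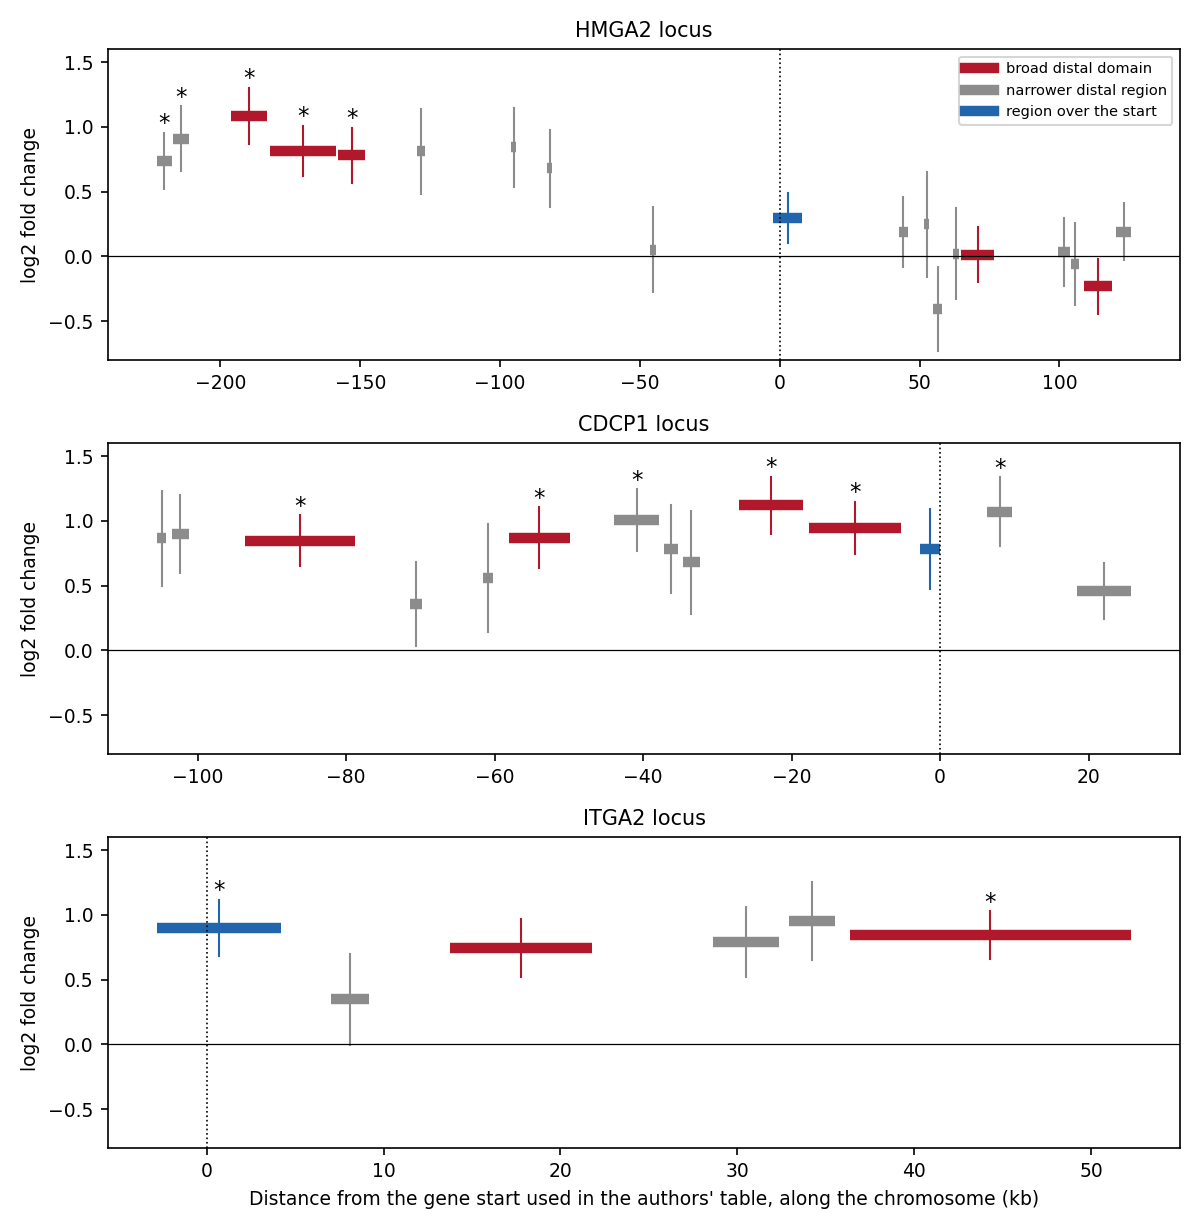
Log2 fold change from the authors' deposited table (vertical axis, thin lines are 1 standard error) of all tested regions along the HMGA2, CDCP1 and ITGA2 loci (horizontal axis, kb from the gene start used in that table, in chromosome order, so that CDCP1, on the minus strand, reads from right to left); bars span each region and asterisks mark an adjusted p under 0.05. At HMGA2 the values are near 0.8 to 1.1 in the domains left of the start and near 0 or below in the domains right of it. At CDCP1 and ITGA2 all values are positive, as are 87.3% of all tested regions. Only regions in the windows given in the text are drawn, so the last domain of the CDCP1 locus, which was not called, is missing.

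FST, follistatin, binds and blocks activins, and INHBA encodes a subunit of activin A. FST had 2 called domains, chr5:53349986-53370065 and chr5:53410489-53431663, at 0.67 ± 0.19 and 0.74 ± 0.19 (adjusted p 0.0301 and 0.0192) in the authors' deposited table. INHBA had 5 domains, 4 of them far from it in a stretch between coding genes, at 0.30, 0.62, 0.69, 0.55 and 0.49 in the authors' deposited table in chromosome order. None was called, and the smallest adjusted p was 0.0571. GRAMD1B, a sterol transfer protein, had 2 called domains at 0.97 ± 0.21 and 0.74 ± 0.21 in the authors' deposited table.

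Adjacent domains had like fold changes across the genome. For 211 pairs of consecutive domains with a gap of up to 50 kb, the median absolute difference in log2 fold change was 0.127, with a Pearson correlation of 0.706 and a Spearman correlation of 0.663. For 326 pairs with gaps from 50 kb to 1000 kb the median difference was 0.183 and the correlations were 0.187 and 0.170. For 510 pairs with wider gaps the difference was 0.223 and the correlations -0.119 and -0.087. The pairs share the same 4 libraries, a domain can be in 2 pairs, and the correlations are descriptions.

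**Figure D4:**
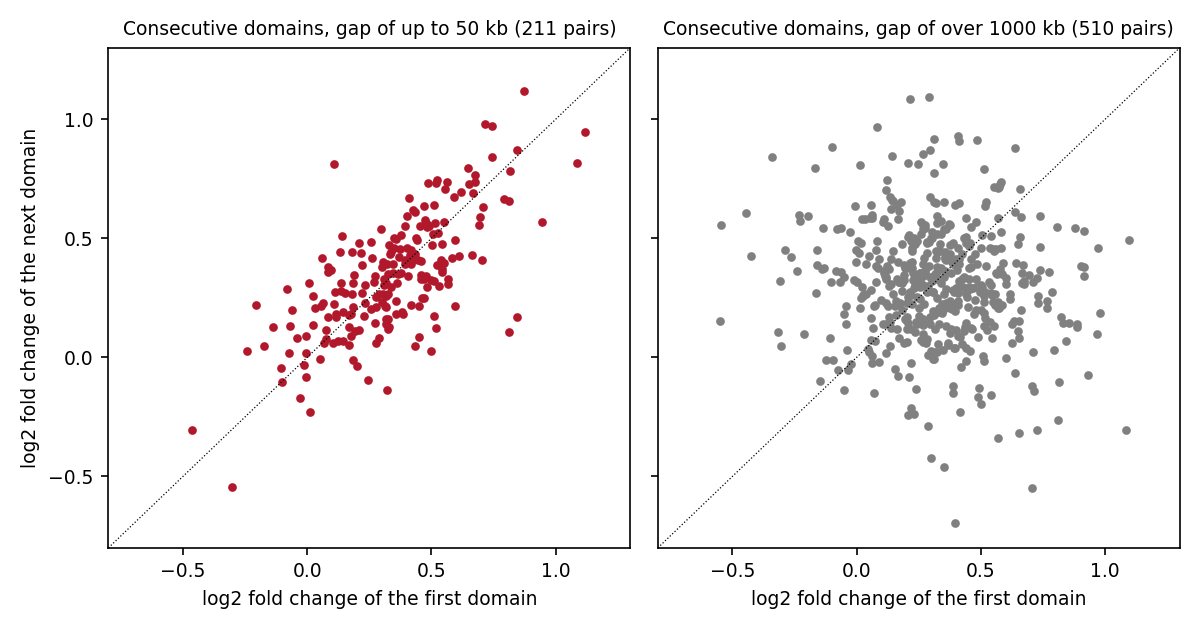
Log2 fold change of each tested domain (horizontal axis) against that of the next domain on the chromosome (vertical axis), for 211 pairs with a gap of up to 50 kb on the left and 510 pairs with a gap of over 1000 kb on the right; the dotted line marks equal values. Pairs of close neighbours lie along the line and distant pairs form a round cloud.

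Domains were also set beside the region over the start of their assigned gene. Both were tested for 766 domains of 556 genes, where the median log2 fold change was 0.32 in the domains and 0.36 at the starts, and the domain was the higher in 321. The correlation was 0.334 (Pearson) and 0.303 (Spearman). For 43 called domains of 36 genes, the median was 0.80 in the domains and 0.50 at the starts, with the domain higher in 37. These domains were picked by their own fold change, so that gap is in part fixed by the choice. Start regions were called for 4 of the 36 genes, ITGA2, NTSR1, SLC2A13 and TMC7, and for 6 of all 556 genes. Among all tested regions over a start, 1.82% of the broad and 0.786% of the narrower ones were called. The 36 genes were chosen through their called domains, and the difference was not tested. The median of all tested regions, 0.32, is itself below the 0.36 at the starts for all 766 domains. For 26 of the 36 genes the start stood above that median of all tested regions. For 10 it stood below, and there the values ran from 0.19 to 0.30 in the authors' deposited table. Those 10 were HMGA2, SREK1, PTPN1, RASSF8, SMYD3, ARNT2, TCF7L2, TGFBR2, STK4 and KIF18A.

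The domains were then read by lists of genes with known roles. The AP-1 subunits (11 genes) and the pigmentation genes (10 genes) had no domain assigned to any member. The counts below stand beside 6.17% called and 91.5% positive over all tested domains, of which 349 (32.6%) had an unadjusted p under 0.05, and beside 1.67% called over all tested regions. The lists are small and no test compared them with the rest. For the 16 genes of MAPK output and feedback, the ERK phosphatases, Sprouty proteins and other targets of the pathway that mutant BRAF drives in A375, 11 had a domain. Of their 23 domains 22 were positive, 11 had an unadjusted p under 0.05 and none was called, with a median of 0.40 beside 0.32 over all domains. The ERK phosphatase gene DUSP5 had the highest value, 0.58 ± 0.22 (adjusted p 0.154), in the authors' deposited table. SPRY4, a Sprouty inhibitor of receptor kinase signalling, had 4 domains at 0.51, 0.51, 0.52 and 0.13, and PHLDA1 had 2 at 0.46 and 0.40, in the authors' deposited table. The lowest was SPRED2, another inhibitor, at -0.04 ± 0.23 in the authors' deposited table.

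Of the 19 genes of YAP, TEAD and TGF-beta output, 5 had domains. All 9 domains were positive with a median of 0.29, and 1 was called: a domain 256591 bases before TGFBR2, the type II TGF-beta receptor, at 0.85 ± 0.25 (adjusted p 0.0394) in the authors' deposited table. SMAD3, which carries the receptor's signal, had 4 domains at 0.32, 0.26, 0.48 and 0.29, and its inhibitor SMAD7 1 at 0.28, in the authors' deposited table. The remaining domains were those of WWTR1, given above, and 1 of AMOTL2, a binding partner of YAP, at 0.29 ± 0.22 in the authors' deposited table. Without the TGFBR2 domain the list's values lay between 0.26 and 0.48.

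The neural crest and melanocyte regulators had domains for 8 of 14 genes. Of 15 domains 13 were positive, none was called, and the median was 0.25. SOX9 had 2 domains downstream of the gene at 0.61 ± 0.21 and 0.17 ± 0.22 in the authors' deposited table, with adjusted p-values of 0.0911 and 0.645. TFAP2C likewise had values of 0.12 and 0.51, and the 5 domains within SOX5 ran from 0.06 to 0.47 in the authors' deposited table. The domain at MITF, the master regulator of melanocytes, stood at -0.02 ± 0.20, and that beside FOXD3 at -0.34 ± 0.19 (adjusted p 0.302), in the authors' deposited table. Among markers of dedifferentiated melanoma, 10 of 16 genes had domains, 19 in all. None was called, 18 were positive and the median was 0.28. The 4 domains at SERPINE2, a protease inhibitor, ran from 0.32 to 0.51, and the 4 beside THBS1, thrombospondin, from -0.01 to 0.18, in the authors' deposited table.

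For matrix and adhesion, 8 of 22 genes had 10 domains, all positive with a median of 0.33, and 2 were called. These were the ITGA2 domain given above and a domain inside COL4A2, a basement membrane collagen, at 0.67 ± 0.20 (adjusted p 0.0428) in the authors' deposited table. A domain of 32382 bases at ITGA6, a laminin-binding integrin subunit, stood at 0.53 ± 0.21 (adjusted p 0.158), and the 2 at LAMB1, a laminin chain, at 0.07 and 0.08, in the authors' deposited table. Fatty acid use and PPAR targets were thinly represented, with 4 of 21 genes and 5 domains. PLIN2, which coats lipid droplets and is a PPAR target, had the only call there, a domain of 22065 bases at chr9:19153068-19175133. In the authors' deposited table its level was 469 and its log2 fold change 0.82 ± 0.18, adjusted p 0.00471, and the region over the PLIN2 start stood at 0.61 ± 0.19, adjusted p 0.0675. PPARG, the adipocyte receptor, had 2 domains at 0.39 and 0.22, and its partner RXRA 1 at 0.31, in the authors' deposited table. The last domain, beside CD36, a fatty acid carrier, and GNAT3, stood at 0.29 ± 0.22 in the authors' deposited table. None of the calls in the 6 lists with domains remained after centring.

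**Figure D5:**
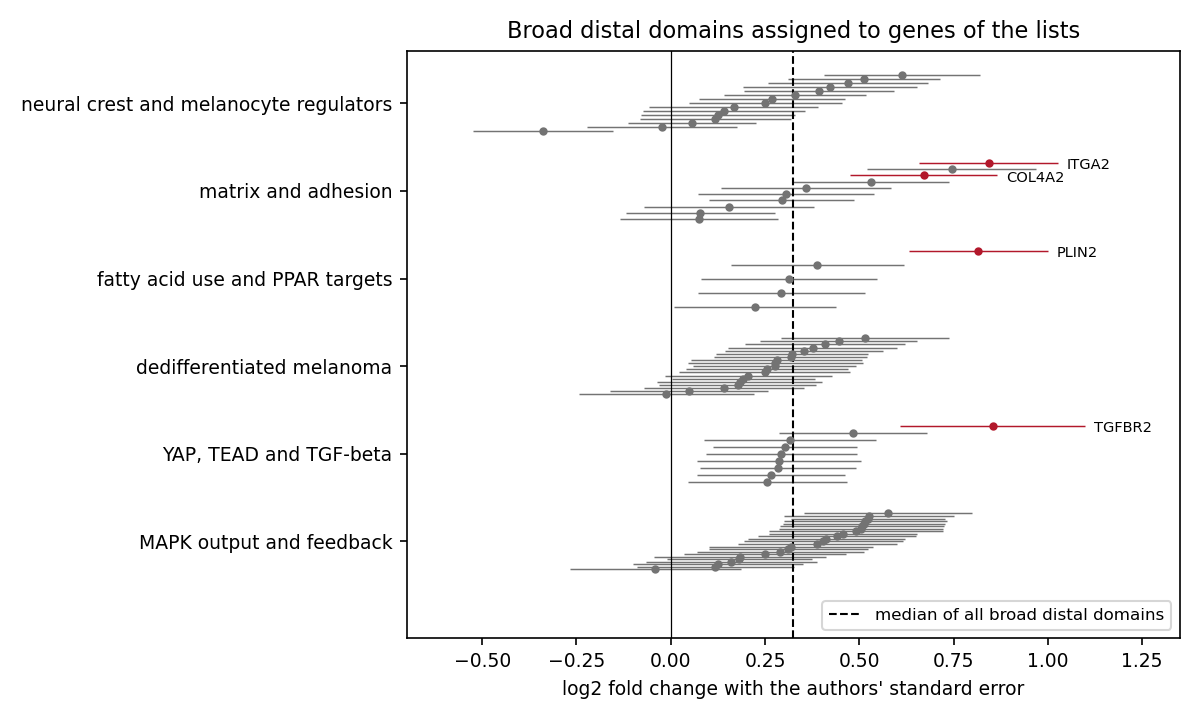
Log2 fold change from the authors' deposited table (horizontal axis) with its standard error (bars) for each of the 81 broad distal domains assigned to genes of 6 lists (rows); red points have an adjusted p under 0.05 and the dashed line is the median of all tested domains, 0.32. TGFBR2, PLIN2, ITGA2 and COL4A2 hold the 4 called domains, and the other points run from -0.34 at FOXD3 to 0.75 at the second ITGA2 domain.

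Domains were not spread evenly over genes. A single domain was assigned to 619 genes, 2 to 123, 3 to 38, 4 to 12, 5 to 6 and 6 to 3. The genes with 6 were BCAR3, an adaptor in antioestrogen resistance, MAML2, a Notch coactivator, and ACTBL2, an actin-like protein. BCAR3's domains ran from 0.14 to 0.64, MAML2's from 0.06 to 0.45 and ACTBL2's from -0.11 to 0.20 in the authors' deposited table. At ACTBL2 5 of the 6 were negative, beside 91 of all 1070 tested domains. The standard errors of these 5 were 0.20 to 0.22, larger than the size of each value, so their signs are uncertain. Of the 5, 3 lie in a single locus.

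The negative side held few domains, none of them called in the authors' deposited table, beside 0.0192% of all tested regions called negative. After DPH6, the lowest values in that table were -0.55 ± 0.23 beside NUDT12, -0.54 ± 0.22 and -0.46 ± 0.22 inside THRB and -0.45 ± 0.22 beside COL2A1. Their adjusted p-values there ran from 0.173 to 0.258. THRB, a thyroid hormone receptor, had 3 neighbouring domains between chr3:24195522 and 24243618. The one in the middle stood at -0.30 ± 0.22 in the authors' deposited table, so all 3 lay below the median of the domains.

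By chromosome, the 16 domains of chromosome 18 had a median of 0.09, with 10 positive and none at an unadjusted p under 0.05. Narrower distal regions of chromosome 18 had a median of 0.26 and regions over starts 0.35. At the other end, all 18 domains of chromosome 19 were positive with a median of 0.40, where narrower distal regions had 0.46 and regions over starts 0.40. All 39 domains of chromosome 6 and all 13 of chromosome X were positive too, with medians of 0.30 and 0.40. The median of chromosome 20 was 0.39. Chromosomes 18 and 19 were picked for their lowest and highest medians, and no difference between chromosomes was tested. Chromosome 21 had 22.3 domains per 1000 distal regions and chromosome 19 the fewest, 8.56.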

How the data were processed

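The series profiled H3K27ac by chromatin immunoprecipitation and sequencing in 2 vehicle and 2 octanoate libraries of A375. The submitters' processing notes name hg38, Trim Galore, cutadapt, FastQC, Bowtie2, Picard, MACS2, featureCounts, DESeq2 and bedtools 2.29.1, without their roles. Whether starts count from 0 or 1 is not given in the sources used here, and coordinates are printed as deposited. Per the file headers, the mean level is a normalized signal whose scaling is not stated. Fold changes in the deposited table are on the log2 scale with a standard error each, and their numerator is not named. The score in the statistic column of the deposited table equals the fold change over its standard error. Each p-value and adjusted p-value is the authors', per the file headers, and an adjusted value of 1 was read as not computed (mean level up to 18.4). The distance column is the authors' own, in bases, per the file headers.

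The 95312 lines of the deposited table were reduced to 91107 distinct regions. The test planned for values per library could not be run, since the table holds none (0 columns of single libraries), and the authors' DESeq2 comparison is described instead. For centring, the median of the tested regions was subtracted from each fold change, a two-sided normal p-value was taken with the deposited standard error, and the tested regions were adjusted again by the method of Benjamini and Hochberg. These steps were run on simulated data in which the planted changes were larger than any domain's distance from the median. The simulation therefore does not show whether changes of the size seen in the domains are kept by centring. Genes and sequences come from RefSeq tables of GRCh38.p14, with Python 3.11.15, pandas 2.3.3 and scipy 1.17.1. Other width, distance, threshold and adjustment settings were tried.

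By rule, named domains were the 15 calls with the smallest p and any negative call, the 10 widest, the 10 with the highest level and the 10 with the highest level per kb, the 5 largest and 5 smallest fold changes, the domains of the 5 genes with the most, those assigned to listed genes and the 3 on either side of the width limit. Others, such as those at VMP1, FST, CLEC3B, EREG and PTGES, were named after their values were seen. The domains, the gene lists and the rules were chosen with earlier results of these data known, so the lists support no direction. Domains on chromosome 8 are counted and not named. Values of some single domains are not reported here.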

Additional observations from a re-analysis of the deposited data

How the results depend on the processing

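No paired analysis was possible because single libraries have no values in the table, and for the same reason no library could be left out and no replicate block could be fitted. The 66 calls became 115 at a width of at least 6000 bases, 23 at an adjusted p under 0.01, 4 at an absolute log2 fold change of at least 1, 36 with adjustment over all distinct regions and 1 after centring. Of the 66 calls, 36 were kept under adjustment over all distinct regions and 0 after centring. Adjustment over more regions raises each adjusted p, and centring shrinks the fold change of each of the 66 calls. The share of positive domains of 91.5% became 89.5% at a width of at least 6000 bases, 93.5% at 10000 bases and 98.6% among domains with an unadjusted p under 0.05. The 81 domains assigned to listed genes became 125 and 48 at widths of at least 6000 and 10000 bases. The count of calls was 46 at 10000 bases, 66 without domains under 2500 bases from a gene, 64 without chromosome 8 and 66 without the 98 domains over a RefSeq coding start. The median log2 fold change lay between 0.31 and 0.33 under these 5 sets of width, distance, chromosome and start rules and over all distal regions in the domains' range of level. It was not recomputed under the other settings, and centring moves it by construction. The setting without RefSeq coding starts, and those for the listed genes, were chosen after seeing the data. With centring, DPH6 was the domain that gained a call. Depth per library is unknown, no interval on a level can be given, and all tests rest on 2 libraries against 2.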
